A study of Bos taurus with 6 samples.

Results

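Cadherins and protocadherins are the genes described here, by the signal of methylated DNA over their bodies in bovine dermal fibroblasts, the collagen-making cells of the skin. Members were the 3 kb windows on chromosomes 1 to 29 whose gene label began with PCDH or was CDH followed by digits. There were 2567 such windows among 902984 windows of the genome, and they carried the labels of 60 genes. The clustered protocadherins of chromosome 7 (labels PCDHA, PCDHB and PCDHG) had 134 windows and 27 genes, the single protocadherins 918 windows and 10 genes, and the cadherins 1515 windows and 23 genes. MIRA-Seq (methylated CpG island recovery assay sequencing) pulls down DNA fragments that hold methylated CpG sites with methyl-binding proteins and sequences them. The number of reads in a window thus rises with its methylated CpG sites and gives no methylation level for a single site. Reads were not divided by the number of CpG sites in a window, so low methylation cannot be told apart from few CpG sites. Cultures came from 3 Holstein heifers, each sampled at 5 and again at 16 months of age, were grown to passage 5 and received no treatment, and each culture gave 1 library. One culture per animal and age means that a difference between ages within an animal cannot be told apart from a difference between 2 cultures. The p-values measure the spread between these 6 libraries, mostly as pooled over all windows or genes tested. Methylated DNA holds no transcript levels, so the fibroblast identity of the cultures was taken from the labels.

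Cadherins are calcium-dependent adhesion proteins that bind the same protein on a neighboring cell and are anchored to actin through catenins. Protocadherins are the largest branch of the family. The clustered protocadherins lie in tandem arrays, named alpha, beta and gamma, in which each variable exon has its own promoter, and alpha and gamma variable exons are spliced to shared constant exons. In neurons a cell uses a few of these promoters, and those left unused are commonly methylated. Single protocadherins stand alone in the genome and each has an ordinary promoter.

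The 6 libraries held between 19.9 and 43.6 M reads counted in windows, and between 24822 and 55773 of them fell in member windows. Signal is given as RPKM, in which the reads of a window are divided by its length in kb and by the matched reads of the library. A window was tested where it had at least 1 CPM (counts scaled to the counted reads of the library) in at least 3 of 6 libraries, which 312 member windows passed. Passing windows were 42 of 134 (31.3%) of the clustered protocadherins, 13 of 918 (1.42%) of the single protocadherins and 257 of 1515 (17.0%) of the cadherins. Among other gene-labelled windows 18.2% passed. The share of windows without a read was 6.70% in animal 2 at 5 months (32.1 M counted reads) and 7.80% in animal 1 at 16 months (43.6 M). It was 32.4% in animal 1 at 5 months (19.9 M) and 25.5% in animal 2 at 16 months (21.5 M), the libraries with the fewest counted reads. In animal 3 the deeper library had the larger share, with 16.8% at 5 months (37.3 M) against 9.25% at 16 months (29.7 M).

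Averaged over all their windows, clustered protocadherins carried the most signal of the 3 classes and single protocadherins the least. Over the windows that passed the filter single protocadherins came first, with 1.07 RPKM, against 0.714 in clustered protocadherins and 0.495 in cadherins. The 13 single protocadherin windows that passed included a PCDH15 window of stacked reads (described below) with 6.49 RPKM, and the next highest had 1.59 RPKM. The mean over the clustered windows was 0.254 ± 0.0634 RPKM (SD, n = 6 libraries). By library it was 0.251, 0.211 and 0.216 RPKM in animals 1, 2 and 3 at 5 months, and 0.313, 0.348 and 0.186 RPKM in the same animals at 16 months. The cadherin windows had 0.124 ± 0.0175 RPKM and the single protocadherin windows 0.0343 ± 0.00864 RPKM. Other gene-labelled windows had 0.210 ± 0.0290 RPKM. The order of clustered protocadherins, cadherins and single protocadherins was the same in each of the 6 libraries, in which the clustered windows held 1.46 to 3.31 times the signal of cadherins and 3.91 to 13.8 times that of single protocadherins. Clustered windows were above other gene-labelled windows in 5 of 6 libraries, by a ratio of 0.909 to 1.61, so that pair was not separated in every library. Over the windows of a class the median was far below the mean, at 0.0545 RPKM for clustered protocadherins, 0.0400 for cadherins and 0.0115 for single protocadherins.

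Mean signal was higher in windows with a coding sequence entry than in the others. For some windows the deposited files print such an entry beside the gene, and these windows are called coding windows here. Notes with the files describe the entry as a count for the gene, but it changes between windows of a gene (rising along CDH23 and running down the minus-strand CDH4), so reading it as a mark of coding sequence in the window is an assumption that was not checked against an annotation. In the clustered protocadherins 51 coding windows had 0.496 ± 0.149 RPKM and 83 other windows had 0.105 ± 0.0156 RPKM, a ratio of 3.55 to 6.29 across libraries. In single protocadherins the corresponding means were 0.124 ± 0.0173 and 0.0269 ± 0.0101 RPKM, and in cadherins 0.289 ± 0.0532 and 0.0904 ± 0.0167 RPKM. For other labelled genes the ratio of coding to other windows was 1.53 to 2.62. The ratio was 2.70 to 10.8 in single protocadherins and 2.18 to 4.79 in cadherins, so a high ratio was not particular to the clusters. Single windows without the entry could still be tall, among them the tallest windows of PCDH15, CDH20 and PCDHGB4. The contrast was steepest in the alpha array, where coding windows held 10.2 to 43.0 times the signal of the 39 other windows. Most of those 39 lay under the long PCDHA13 label (41 windows, 4 of them coding), so the ratio is largely set against that label. It was mildest in the gamma array, at 1.85 to 2.55 times, within the range of other genes.

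**Figure D1:**
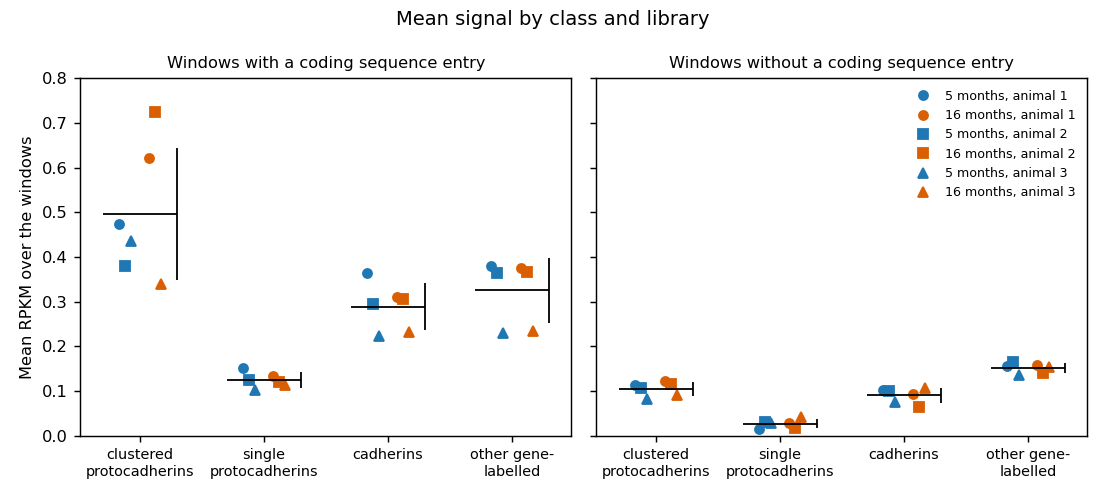
Mean RPKM over the windows of each class, for windows with (left) and without (right) a coding sequence entry. Each symbol is 1 library (blue, 5 months; orange, 16 months; circle, square and triangle for animals 1, 2 and 3), the horizontal line is the mean of 6 libraries and the vertical line spans 1 SD either side. In coding windows of the clustered protocadherins the 16-month libraries of animals 1 and 2 are the highest points and that of animal 3 is the lowest.

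The clustered locus ran from chr7:53582546-54284545 (UMD v3.1, plus strand), a stretch of 702 kb. The signal formed sharp peaks. Among windows with a protocadherin label the alpha array held the tallest ones, led by a window labelled PCDHA9 at chr7:53636546-53639545, with 2.56 ± 0.942 RPKM (n = 6). The first window labelled PCDHA13, chr7:53663546-53666545, had 2.04 ± 0.855 RPKM. Windows of PCDHA2 (chr7:53585546-53588545) and PCDHA3 (chr7:53618546-53621545) had 1.89 ± 0.684 and 1.82 ± 0.695 RPKM. The PCDHA13 label went on for 41 windows through the intron that leads to the constant exons, and its first window alone held 55.4% of its reads. In the beta array, whose genes have a single coding exon each, the tallest window was that of PCDHB4 (chr7:53909546-53912545) with 0.927 ± 0.400 RPKM. Over all its windows the gamma array had 0.266 ± 0.0561 RPKM, close to the alpha array (0.265 ± 0.0781 RPKM) and the beta array (0.212 ± 0.0734 RPKM) within the spread of the libraries. Its PCDHGB4 label ran over 37 windows, of which 12 passed the filter, and the tallest of these had 1.05 RPKM. Members of an array are close copies, and the placing of reads that match several of them is not given in the sources, so reads may have been divided between neighbors.

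**Figure D2:**
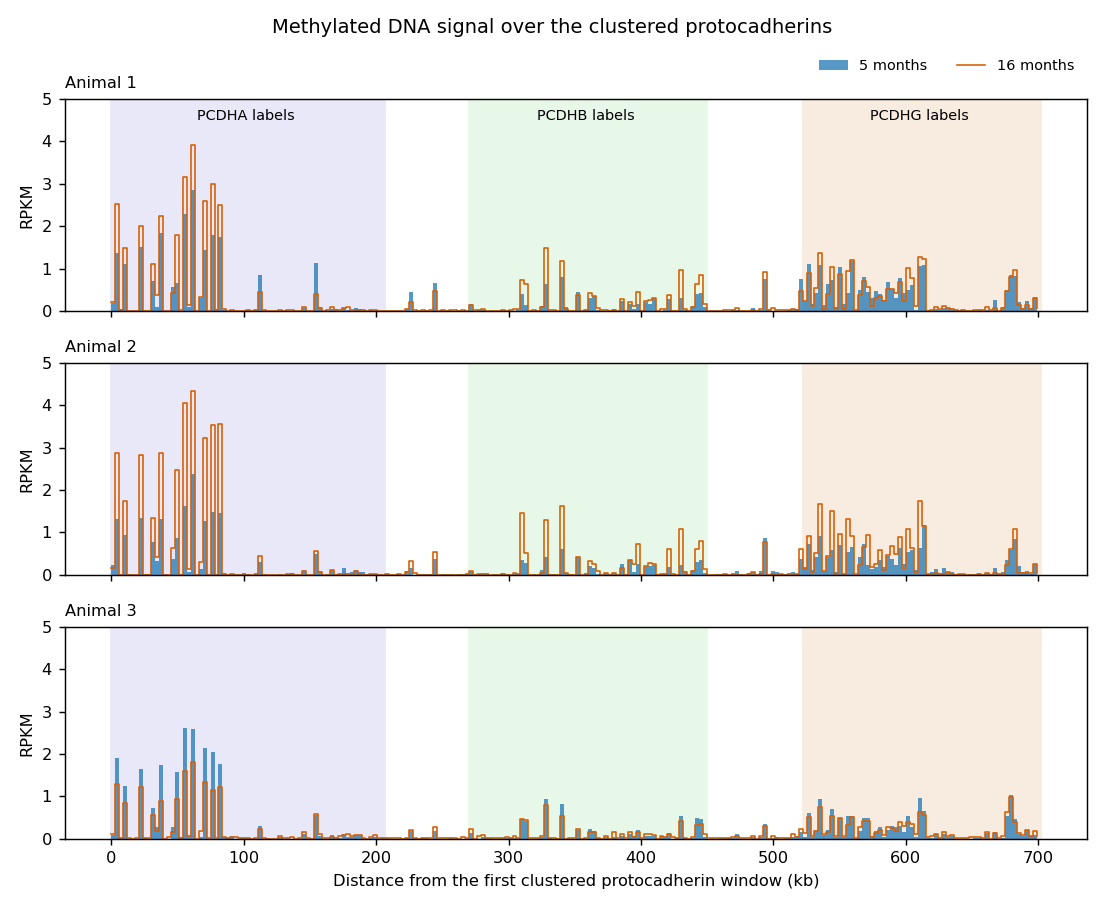
RPKM of each 3 kb window along the clustered protocadherin locus, by distance from its first window, with 1 panel per animal (filled blue, 5 months; orange line, 16 months). Shading marks the stretch covered by PCDHA, PCDHB and PCDHG labels. In animals 1 and 2 the orange line rises above the filled profile over most alpha and beta peaks, and in animal 3 it lies below the filled profile at the tall alpha peaks.

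By gene, PCDHA9 (1.09 ± 0.425 RPKM over its windows) and PCDHA2 (1.03 ± 0.344 RPKM) led the clustered protocadherins, followed by PCDHGC5 (0.811 ± 0.188 RPKM), PCDHGA5 (0.761 ± 0.235 RPKM) and PCDHA4 (0.629 ± 0.164 RPKM). The ranges of these 5 genes over libraries overlapped, so their order is not resolved. The lowest were PCDHGB3 (0.0610 ± 0.0581 RPKM), PCDHB7 (0.0836 ± 0.0213 RPKM) and PCDHA13 (0.0892 ± 0.0148 RPKM), the latter 2 with many windows that are not coding.

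Single protocadherins split into 3 genes with a higher mean over their windows and 7 with a lower one. PCDH1, an adhesion protein of airway epithelium, had 0.764 ± 0.142 RPKM over its 6 windows on chromosome 7, outside the clustered locus, with a highest window of 1.59 ± 0.434 RPKM. PCDH8, an activity-regulated protocadherin of the nervous system, had 0.306 ± 0.102 RPKM. PCDH12, the vascular endothelial protocadherin, had 0.265 ± 0.0590 RPKM. The library ranges of PCDH8 and PCDH12 overlapped, and both stood above those of the remaining 7 genes. PCDH18 had 0.0412 ± 0.0115 RPKM, PCDH10 had 0.0268 ± 0.00834 RPKM, and the lowest were PCDH7 (0.0251 ± 0.00921 RPKM), PCDH17 (0.0228 ± 0.00647 RPKM) and PCDH9 (0.0195 ± 0.00825 RPKM). The last 3 are long genes made mostly of intron. PCDH7 still had a marked start, since the first of its 158 windows had 0.454 ± 0.0898 RPKM and 10.8% of the reads of the gene.

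PCDH15, which joins CDH23 in the tip links of the sensory hair cells of the ear, had 0.0395 ± 0.0145 RPKM over 306 windows. A single intronic window, chr26:4829331-4832330, held 54.2% of its reads and was the tallest of all 2567 member windows, with 6.49 ± 2.94 RPKM. Its reads were stacked: the highest depth at a base was between 0.896 and 0.940 of the read count of the window in each of the 6 libraries, against 0.182 to 0.290 in the tallest PCDHA9 window. Without windows of stacked reads the mean of the single protocadherins was 0.0241 RPKM in place of 0.0343.

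Cadherin genes ran from 0.0149 to 0.840 RPKM. CDH24 (0.840 ± 0.201 RPKM), CDH15 (0.823 ± 0.293 RPKM), CDH5 (0.587 ± 0.140 RPKM), CDH16 (0.513 ± 0.174 RPKM) and CDH20 (0.468 ± 0.103 RPKM) were highest. Of these, CDH15 is M-cadherin of muscle, CDH5 is VE-cadherin of endothelium and CDH16 is the kidney cadherin. Their library ranges overlapped. The tallest cadherin windows were at the end of CDH4, retinal cadherin, with 2.45 ± 0.882 RPKM at chr13:55671797-55674796 (minus strand), and in CDH5, with 2.20 ± 0.890 RPKM at chr18:34271798-34274797. CDH5 held 62.1% of its reads in that 1 window. CDH23 had 0.324 ± 0.0728 RPKM, CDH4 0.299 ± 0.0648 RPKM, CDH3 (P-cadherin) 0.195 ± 0.0302 RPKM and CDH13 (T-cadherin, held in the membrane by a lipid anchor) 0.111 ± 0.0218 RPKM.

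Cadherins known from fibroblasts and other mesenchymal cells were in the middle and lower part. CDH11 (OB-cadherin) had 0.105 ± 0.0146 RPKM over 31 windows, of which 4 passed the filter, with a tallest window of 0.787 RPKM. CDH2 (N-cadherin) had 0.0511 ± 0.0187 RPKM over 83 windows, and no CDH2 window passed. CDH1 (E-cadherin), the adhesion protein of epithelium, was also low, with 0.0573 ± 0.0212 RPKM in 9 windows, none of which passed. The lowest were CDH12 (0.0164 ± 0.00738 RPKM), CDH9 (0.0149 ± 0.00794 RPKM) and CDH19 (0.0149 ± 0.00759 RPKM), type II cadherins known mostly from the nervous system. The library ranges of CDH1, CDH2, CDH6 and CDH7 overlapped. Gene means were taken over labels of unlike length. CDH24, CDH15, CDH5 and CDH16, among the highest, had 4, 7, 6 and 5 windows, though CDH4 and CDH23 had 162 and 128. The part of gene length in the order of the cadherins was not tested.

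**Figure D3:**
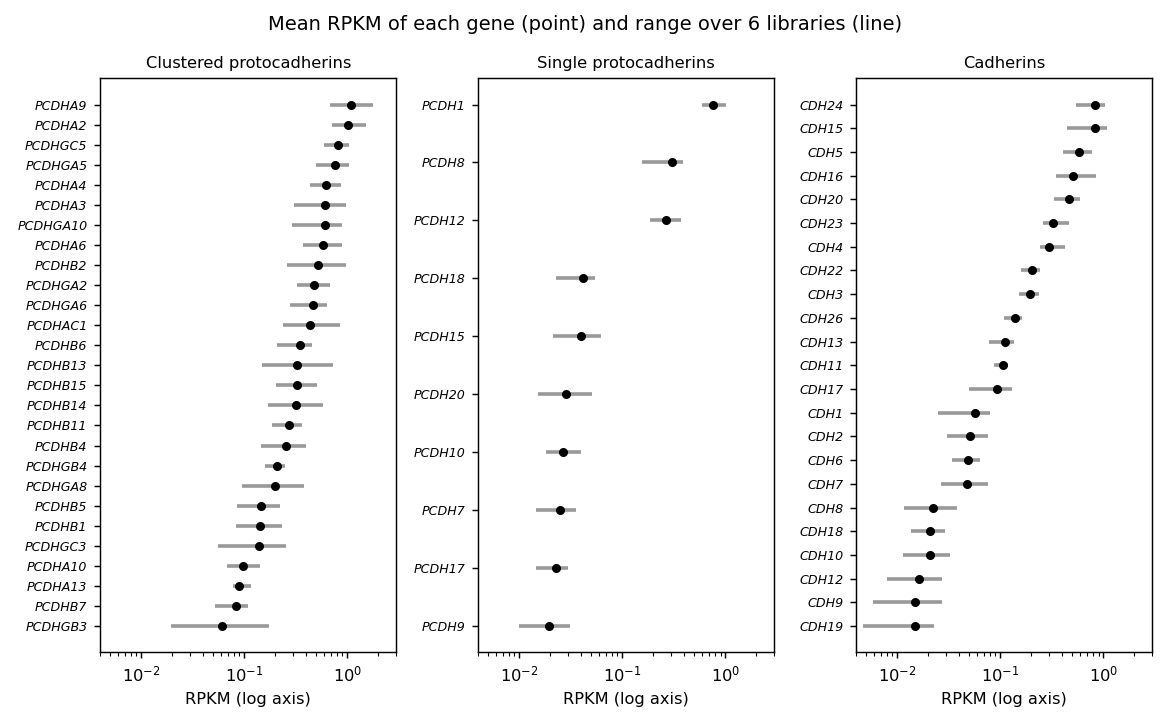
Mean RPKM of each gene over its windows (point) and the range over the 6 libraries (line), on a log axis, ordered within each class. PCDH1, PCDH8 and PCDH12 stand apart from the other single protocadherins, and cadherins run from CDH19 at 0.0149 RPKM to CDH24 at 0.840 RPKM.

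The first window of a gene, which holds its labelled start, was set beside the other windows of its class. In the clustered protocadherins the first windows had 0.470 ± 0.150 RPKM and the others 0.200 ± 0.0422 RPKM. In the single protocadherins the values were 0.148 ± 0.0345 and 0.0331 ± 0.00893 RPKM, and in the cadherins 0.180 ± 0.0396 and 0.123 ± 0.0174 RPKM. First windows were higher in each of the 6 libraries in all 3 classes, by a ratio of at least 2.01 for clustered protocadherins and 1.16 for cadherins. Among other genes the ratio was 0.922 to 1.08. When each gene was given the same weight the direction turned in single protocadherins and cadherins, where first minus other windows was -0.0155 and -0.0511 RPKM. For clustered protocadherins this value was -0.00684 RPKM, but it does not compare the same genes. Clustered genes with only 1 window count among the first windows and have no other windows, so the value leaves their direction undecided.

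Age was tested by comparing the 5-month and 16-month libraries of the same animals (edgeR's quasi-likelihood test with the animal as a block, on counts scaled by TMM factors, which correct for differences in composition between libraries). A window was called at a false discovery rate (FDR) under 0.1 over all 104658 windows tested with the ages at least 2 fold apart. A positive log2 difference means more signal at 5 months. Of the 312 member windows, 2 were called, both in the beta array and both higher at 16 months. Among all windows tested 0.185% were called.

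The called window of PCDHB14, chr7:54011546-54014545, held 31, 38 and 100 reads at the younger age (animals 1, 2 and 3 in turn) and 197, 118 and 60 reads at the older age. In RPKM this was 0.318, 0.245 and 0.532 at 5 months and 0.964, 1.09 and 0.410 at 16 months. The 16-month values of animals 1 and 2 were above all 3 values at 5 months, but in animal 3 the 16-month value was the lower one and the ages overlapped. The fitted log2 difference was -1.10 (SE 0.251, edgeR FDR = 0.0217), and by animal it was -1.43, -1.85 and 0.45.

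The called window of PCDHB2, chr7:53891546-53894545, held 38, 53 and 89 reads in the younger and 148, 158 and 67 in the older cultures. Its RPKM was 0.390, 0.341 and 0.474 at 5 months and 0.724, 1.46 and 0.458 at 16 months, again with overlap through animal 3. The log2 difference was -1.01 (SE 0.239, edgeR FDR = 0.0319), and by animal -0.84, -1.88 and 0.16. In 1 library, animal 3 at 5 months, the highest depth in this window was 0.629 of its reads. Both calls were lost in DESeq2 and without animal 1 or animal 2, and without the animal block, where the log2 differences were -0.96 for PCDHB14 and -1.0 for PCDHB2. Most calls in the genome were lost as well. Among all windows tested 194 were called in the main fit, 15 in DESeq2, 14 without animal 1, 68 without animal 2 and 0 without the block.

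Among the next windows by p-value the same shape recurred in the arrays. The PCDHB4 window named above had 0.626, 0.431 and 0.932 RPKM at 5 months and 1.48, 1.30 and 0.793 RPKM at 16 months, for a log2 difference of -0.85 (SE 0.223, edgeR FDR = 0.0783), under the fold change threshold. A PCDHA9 window (chr7:53630546-53633545) had 0.657, 0.863 and 1.57 RPKM at 5 months and 1.78, 2.47 and 0.944 RPKM at 16 months, and it was not called (log2 difference -0.75, SE 0.243, edgeR FDR = 0.249). The second window of PCDHB2 (log2 difference -0.94) and the first of PCDHGB4 (-0.71) were not called either, at edgeR FDR values of 0.164 and 0.363. Among the 10 lowest p-values 3 cadherin windows had the opposite sign. A window of CDH16 (chr18:34736798-34739797) had 1.14, 0.515 and 0.538 RPKM at 5 months and 0.450, 0.378 and 0.390 RPKM at 16 months, lower at 16 months in all 3 animals, with a log2 difference of 0.76 (SE 0.233, edgeR FDR = 0.193). The CDH23 window at chr28:28081565-28084564 also moved one way in all 3 animals (0.78, SE 0.258, edgeR FDR = 0.273), and the CDH4 window at chr13:55722797-55725796 did not (0.76, SE 0.269, edgeR FDR = 0.357). A PCDH15 window of stacked reads (chr26:5225331-5228330) completed the list, with a log2 difference of -1.12 (SE 0.394, edgeR FDR = 0.343).

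**Figure D4:**
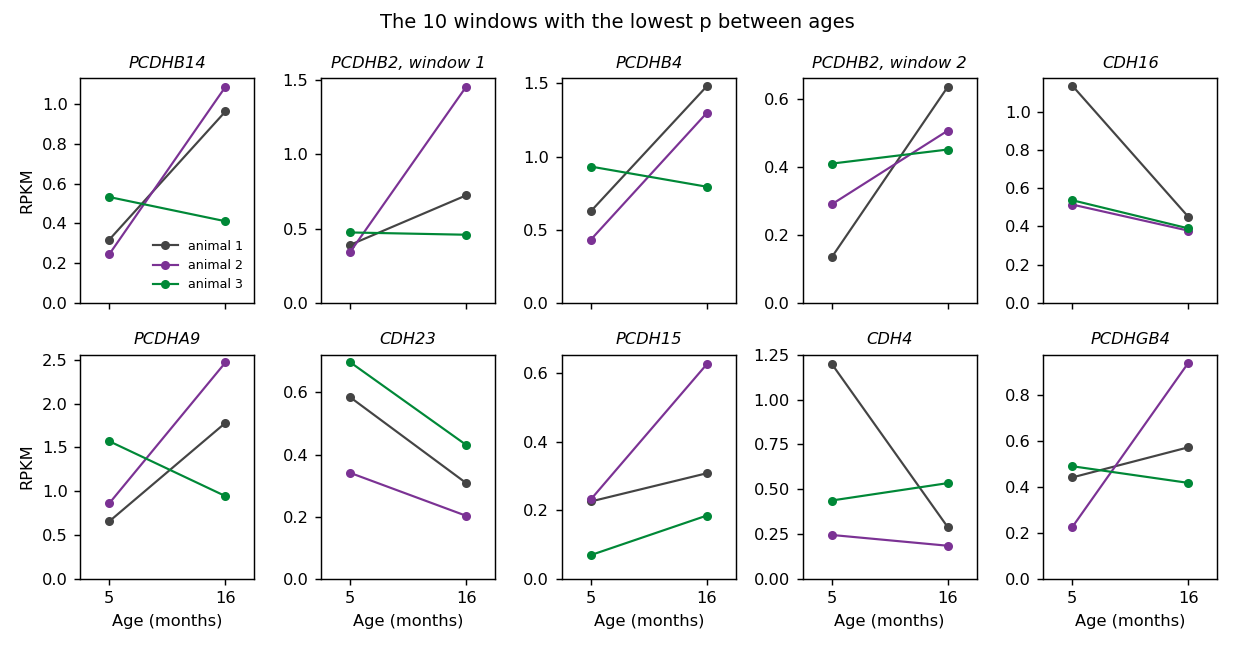
RPKM at 5 and 16 months in the 10 member windows with the lowest p-values between ages, 1 line per animal and 1 panel per window, with axes that start at 0. In PCDHB14, both PCDHB2 windows, PCDHB4, PCDHA9 and PCDHGB4 the lines of animals 1 and 2 rise, while that of animal 3 is flat or falls, with a slight rise in the second PCDHB2 window. In CDH16 and CDH23 all 3 lines fall.

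In the alpha and beta arrays the sign of the difference between ages varied with the animal. Of these windows 0 of 11 in the alpha array and 2 of 11 in the beta array were called, neighboring windows are not independent, and each sign comes from 1 culture per age, so the counts are a description. Of the 11 alpha windows tested, 8 were higher at 16 months in animal 1, 11 in animal 2 and 0 in animal 3. Of the 11 beta windows, 10, 10 and 2 were higher at 16 months in animals 1, 2 and 3. Median log2 differences were -0.57, -0.87 and 0.65 in the alpha array and -0.84, -0.87 and 0.34 in the beta array. The gamma array had medians of -0.01, -0.36 and 0.21 over 20 windows. Cadherins had medians of 0.24, 0.10 and -0.03 over 257 windows, and single protocadherins 0.23, -0.08 and 0.11 over 13 windows. Over all windows tested the medians were 0.01, 0.02 and 0.02.

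The same reads without TMM scaling, as RPKM, gave the same signs in the alpha and beta arrays and are no separate support. Mean RPKM over the 17 alpha coding windows was 0.684, 0.577 and 0.746 at 5 months and 0.974, 1.23 and 0.491 at 16 months in animals 1, 2 and 3. Over the 18 beta coding windows it was 0.222, 0.213 and 0.243 at 5 months and 0.414, 0.461 and 0.224 at 16 months. The 5-month cultures lay close together in the beta array and the 16-month cultures of animals 1 and 2 lay above all of them, while that of animal 3 was within their range. Over the 16 gamma coding windows the values were 0.534, 0.360 and 0.320 at 5 months and 0.483, 0.488 and 0.311 at 16 months, and the ages overlapped.

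**Figure D5:**
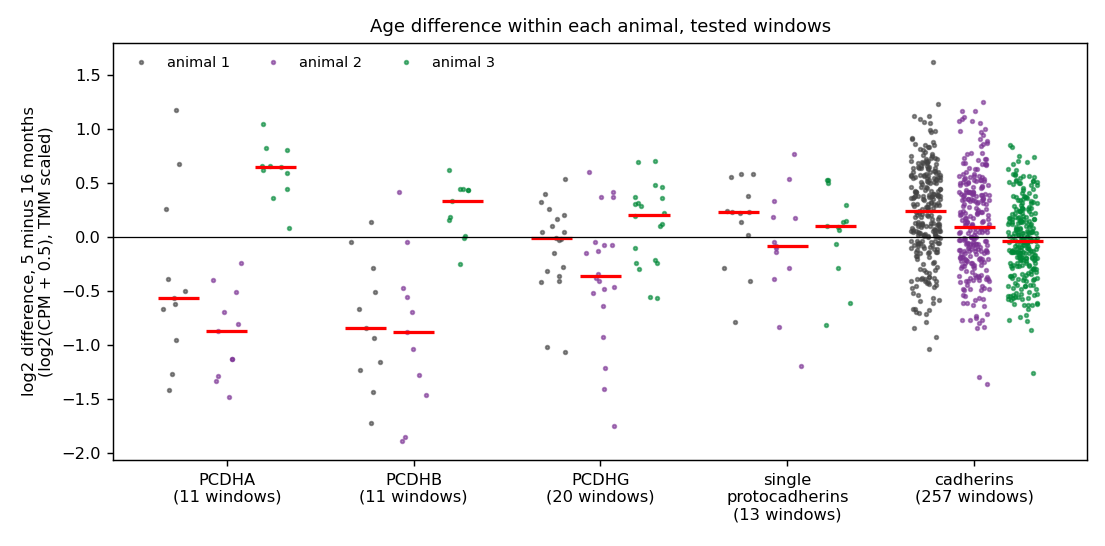
Log2 difference between ages (5 minus 16 months, on log2(CPM + 0.5) with TMM scaling) of each member window tested, by group and by animal, with red bars at the medians. Alpha (PCDHA) and beta (PCDHB) windows lie mostly below 0 in animals 1 and 2 and above 0 in animal 3, with alpha medians of -0.57, -0.87 and 0.65.

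Higher at 16 months in animals 1 and 2 but not in animal 3 was the pattern of 25 of 42 clustered windows (59.5%), 1 of 13 single protocadherin windows, 21 of 257 cadherin windows (8.17%) and 16.7% of all windows tested. The pattern also moved with the level of a window. Among all windows under 0.5 RPKM 5.50% had it, between 0.5 and 1 RPKM 16.5%, and at 1 RPKM or more 40.8%. Clustered windows had it in 6 of 18, 12 of 17 and 7 of 7 windows of the same bands, and cadherin windows in 6 of 178, 9 of 57 and 6 of 22. Median log2 differences of all windows at 1 RPKM or more were -0.09, -0.19 and 0.24 in animals 1, 2 and 3, against -0.57, -1.29 and 0.70 in the 7 clustered windows of that band. The part of signal level in the result was not tested. The 5-month and 16-month libraries held 19.9 and 43.6 M counted reads in animal 1, 32.1 and 21.5 M in animal 2, and 37.3 and 29.7 M in animal 3, and the part of depth was not tested either. The share of counted reads that fell in tested windows also differed. From 5 to 16 months it went from 89.8% to 85.2% in animal 1, from 81.0% to 91.1% in animal 2 and from 86.1% to 77.9% in animal 3. The part of this share was not tested.

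When 1 animal was left out at a time, 0 member windows were called without animal 1 or animal 2 and 14 of 304 without animal 3, where 1.24% of all windows tested were called. Of the 14, 11 were clustered and all 11 were higher at 16 months, by 2.11 to 3.87 fold, with labels PCDHA2, PCDHA9, PCDHB2, PCDHB4, PCDHB13, PCDHB14, PCDHB15, PCDHGA6 and PCDHGB4. The remaining 3 were in CDH20 and CDH7, higher at 16 months, and in CDH4, higher at 5 months. Animal 3 had the opposite sign in most clustered windows, so the calls made without it restate that pattern and are no separate support for it.

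Summed over all windows of a label, 54 of 60 member genes were tested for age and 0 were called (edgeR), while 0.0111% of all genes were called. The lowest p-values belonged to PCDHB2 (log2 difference -1.0, SE 0.360), PCDHB14 (-0.98, SE 0.430), CDH7 (-0.63, SE 0.291), PCDHB4 (-0.68, SE 0.356) and CDH9 (-0.70, SE 0.407). The first 3 had an unadjusted edgeR p below 0.05, and DESeq2 also called 0 member genes. By animal the PCDHB2 differences were -1.23, -1.88 and 0.23. CDH7, which is best known from the nervous system, had -1.04, 0.12 and -0.92, so animal 2 was the exception there.

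Cadherin windows with an unadjusted edgeR p below 0.05 for age numbered 18, or 7.0% of those tested, against 7.10% of all windows, and 4 of them were higher at 16 months. CDH4 had 8 of the 18, all higher at 5 months, and 64 of its 83 tested windows had a positive log2 difference with a median of 0.20. By animal the CDH4 medians were 0.38, 0.18 and -0.09, so animal 3 did not share the direction. In CDH23 52 of 67 windows were positive, with a median of 0.19, and the medians by animal were 0.39, 0.11 and 0.01. Windows of 1 gene are not independent of each other, and none of these was called.

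Animals were compared with age as a covariate, taking the largest fold change between any pair of animals. Of 312 member windows 72 were called, 5 of them clustered, 3 in single protocadherins and 64 in cadherins. Among all windows tested 20.6% were called, so the members' 23.1% was close to the background. On TMM-scaled counts animal 3 was highest in 70 of the 72, against 81.9% of the called windows in the genome. The libraries of animal 3 had TMM factors of 0.718 and 0.850 and the other 4 libraries 1.03 to 1.22. When the TMM factors were taken over every window, filtered or not, 1 member window was called in place of 72. Among all windows tested 729 were called in place of 21512, so these calls depended on the scaling. Fold changes between animals are on TMM-scaled counts, with a median of 2.93 over the 72 windows, and RPKM, which has no such scaling, gave a median of 2.13. In RPKM 45 of the 72 differed at least 2 fold between the means of 2 animals, and animal 3 was highest in 45.

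CDH4 had 27 called windows of 83, CDH23 15 of 67 and CDH13 12 of 43. In all 54 of these windows animal 3 was highest on TMM-scaled counts. The CDH4 window with the lowest FDR, chr13:55998797-56001796, held 43, 51 and 125 reads in animals 1, 2 and 3 at 5 months and 63, 20 and 96 at 16 months. In RPKM it had 0.441, 0.328 and 0.665 at 5 months and 0.308, 0.184 and 0.657 at 16 months, so both libraries of animal 3 were above the other 4. The largest fold change of the CDH4 window was 3.84, or 2.58 in RPKM (edgeR FDR = 3.95e-08 on TMM-scaled counts). A CDH13 window (chr18:9929398-9932397) had 0.605, 0.328 and 0.735 RPKM at 5 months and 0.347, 0.277 and 0.698 RPKM at 16 months, a fold change of 3.53 (edgeR FDR = 1.12e-07). In CDH26 (chr13:57063797-57066796), a cadherin of epithelium, the fold change was 4.24 (edgeR FDR = 6.15e-07).

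In the clustered locus the 5 called windows carried the labels PCDHGC5, PCDHGB4 (2 windows), PCDHA9 and PCDHB2. In RPKM the PCDHA9 and PCDHB2 windows differed only 1.37 and 1.12 fold between animals, and the 2 PCDHGB4 windows 2.05 and 2.68 fold. PCDHGC5 (chr7:54260546-54263545) had 0.851, 0.592 and 1.04 RPKM at 5 months and 0.797, 0.599 and 0.985 RPKM at 16 months. The 2 libraries of each animal lay closer to each other than to those of the other animals, with a largest fold change of 2.52 on TMM-scaled counts (edgeR FDR = 1.83e-05) and 1.70 in RPKM, and its log2 difference by age was 0.04 (SE 0.209). The neighboring PCDHGB4 window (chr7:54257546-54260545) differed 3.00 fold (edgeR FDR = 5.84e-05).

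The stacked intronic window of PCDH15 was also called. It had 3.36, 5.68 and 10.7 RPKM at 5 months and 5.40, 4.30 and 9.51 RPKM at 16 months in animals 1, 2 and 3, a largest fold change of 3.82 on TMM-scaled counts (edgeR FDR = 1.12e-07) and 2.31 in RPKM. Summed by gene, PCDH15 was the 1 member gene of 54 called between animals, with a largest log2 difference of 1.23 (edgeR FDR = 0.0306), where 1.69% of all genes were called. That stacked window gave 54.2% of its reads, and the part of the window in the gene's call was not tested.

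Related genes were looked at as lists. Of 25 desmosomal and atypical cadherins (desmogleins and desmocollins, FAT, DCHS, CELSR, CDHR and calsyntenin genes and RET), 23 were labelled and had 162 windows tested, of which 0 were called by age by edgeR or by DESeq2 and 11 (6.79%) had an unadjusted edgeR p below 0.05. Of 14 genes for the partners of cadherins at the junction (catenins, plakophilins, JUP, VCL, ARVCF and CTNNBIP1), 13 were labelled, and 0 of 60 windows were called by edgeR or DESeq2 and 5 (8.33%) were below 0.05. Of 10 genes for proteins that act on the clustered locus or methylate DNA (CTCF, cohesin and its regulators NIPBL and WAPAL, SMCHD1 and the DNA methyltransferases), 9 were labelled, and 0 of 17 windows were called by edgeR or DESeq2 and 2 (11.8%) were below 0.05. For all windows the share below 0.05 was 7.10%. Mean signal was 0.218 ± 0.0439 RPKM in the first list, 0.0593 ± 0.00989 RPKM in the second and 0.0912 ± 0.0157 RPKM in the third. Called between animals were 29 (17.9%), 11 (18.3%) and 4 (23.5%) windows.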

How the data were processed

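Methylated DNA of 6 fibroblast cultures was sequenced. After filtering, the authors used NextGENe 2.3.4 to align the reads (bovine build UMD v3.1) and deposited raw read counts per 3 kb window, without normalization or pooling. The deposited files also hold a coverage signal, the highest depth in a window, which was used only to mark stacked reads (depth above 0.5 of at least 10 reads in any library). How PCR copies and multiply matching reads were handled is not given in the sources, nor was a genome of this build used, so labels and positions are those of the files. The tools were edgeR 4.0.16 and DESeq2 1.42.0 under R 4.3.3, and Python 3.11.15. TMM factors came from the windows tested, and FDR values from the Benjamini-Hochberg method over all windows or genes tested. Same-animal libraries correlated in their deviations from the age means (0.290, 0.544 and 0.710), and the pairing comes from the animals. Scripts were tested on simulated data.

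The members, lists and tests were chosen with earlier results of these data known. Names were taken from the members called, the 10 windows and 5 genes with the lowest p by age, the 10 called windows with the lowest FDR between animals, the 5 highest windows and the 5 highest and 3 lowest genes of each class, and 17 genes listed at the start. CDH6 and the windows called without animal 3 were chosen after their values were seen. Alternatives covered the test, scaling, filter, thresholds, block, stacked reads and each animal left out.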

Additional observations from a re-analysis of the deposited data

How the results depend on the processing

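The count of member windows called by age, 2, became 0 with DESeq2, with TMM factors from all windows, without a CPM filter, with a CPM filter of 0.5 and without the replicate block (also 0 with the likelihood-ratio test and no block, a setting chosen after seeing the data), and 1 with library size as the only scaling and without windows of stacked reads. Among all windows the calls by age went from 194 to 15 with DESeq2, 25 with TMM factors from all windows, 2 without a CPM filter and 96 with a CPM filter of 0.5. They were 0 without the block (7 with the likelihood-ratio test), 99 with library size only and 171 without stacked windows. Leaving out 1 animal gave 0 to 14 member windows, the 14 without animal 3, where 1278 of all 103419 windows were called. No member gene was called by age except 1 (CDH9) without animal 2, so the range was 0 to 1. Without animal 2, 278 of all 18215 genes tested were called, against 2 of 18025 with all animals. Member windows called between animals, 72, became 40 with DESeq2, 1 with TMM factors from all windows, 0 without a CPM filter and 4 to 65 with 1 animal left out, the 4 without animal 3. Among all windows the calls went from 21512 of 104658 to 12323 with DESeq2 and 729 with TMM factors from all windows. They were 221 of 884574 without a CPM filter and 1476 of 103419 without animal 3. The 1 member gene called between animals became 0 with DESeq2's size factors, with library size only and without a CPM filter, 4 with TMM factors from all features, and 0 to 3 with 1 animal left out. Among all genes the calls went from 305 to 107 with DESeq2's size factors, 6 with library size only and 113 without a CPM filter. They were 3763 with TMM factors from all features and 12 to 2080 with 1 animal left out. The cause of these changes was not tested.

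Mean RPKM of clustered protocadherins, single protocadherins and cadherins was 0.415, 0.0559 and 0.202 over counted reads, 0.0545, 0.0115 and 0.0400 as the median window, 0.409, 0.154 and 0.218 as the mean over genes, and 0.714, 1.07 and 0.495 over windows that pass the filter, where single protocadherins rose above clustered ones. The 13 single protocadherin windows that pass include the stacked PCDH15 window of 6.49 RPKM, which is not a first window. Without stacked windows the mean over all single protocadherin windows was 0.0241. First minus other windows was 0.443, 0.187 and 0.0922 RPKM over counted reads. As the mean over genes it was -0.00684, -0.0155 and -0.0511, and over windows that pass the filter 0.0214, -0.852 and -0.0193. The clustered value of -0.00684 sets the first windows of all genes against the other windows of genes with more than 1 window. The single protocadherin difference of medians was 0.0357. Labels held 1 symbol each, so reading any symbol in a label changed nothing. The median member window held 3 reads per library, and the median single protocadherin window 1 read, where a difference is not detectable at this depth.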

Other observations

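The clustered locus also held windows that carry other labels or none. Of these, 20 passed the filter, 17 with other labels, among them SLC25A2 (a mitochondrial amino acid carrier) and several loci named only by LOC symbols. What the LOC symbols stand for was not checked. The tallest, at chr7:53642546-53645545, had 2.98 ± 0.960 RPKM and lay between PCDHA10 and PCDHA13, above every window with a protocadherin label in the locus. By animal 15, 18 and 5 of the 20 were higher at 16 months in animals 1, 2 and 3, with median log2 differences of -0.36, -0.75 and 0.31. By age 0 were called by edgeR or DESeq2, and 3 had an unadjusted edgeR p below 0.05.

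Protocadherin labels on chromosome X were outside the rule. PCDH19 had 0.0763 ± 0.0107 RPKM (n = 6) over 44 windows, and the windows labelled PCDH11Y, which lie on chromosome X in the files, had 0.0162 ± 0.00555 RPKM over 308 windows.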
